A study of Mus musculus with 48 samples.

Results

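The clonotypes described here are the dominant heavy-chain clonotypes of the lacrimal gland (LG), the exocrine gland beside the eye that secretes the watery part of the tears. They were selected on their share: a clonotype, defined by its IGHV gene, its IGHJ gene and the amino acid sequence of its heavy-chain complementarity determining region 3 (HCDR3), was dominant when it held 1% or more of the counts of a gland. This rule gave 448 dominant clonotypes, 441 of them distinct, among 41504 clonotypes summed over the glands of 24 C57BL/6 (B6) mice. A count is 1 consensus sequence of reads that carry the same unique molecular identifier (UMI).

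Mice of 3 groups were compared. NOD-FMT mice (n = 10) were B6 mice that received antibiotics (ampicillin, vancomycin and metronidazole) and were then gavaged daily over several weeks, from a young age, with fecal supernatant pooled from many old male NOD.B10.H2b mice, a strain that develops autoimmune dry eye. PBS-T mice (n = 9) received the same antibiotics and the same schedule of gavage with PBS. The mice labelled NC1 (n = 5) were untreated B6 mice that served as BCR controls, and they are given as values beside the tests of the gavaged groups. No age at sacrifice was used here, and the labels do not say whether mice of a group shared a cage, so that p-values measure the spread between these mice. The donor material was 1 pool, so the NOD-FMT group stands for that pool.

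B cells that leave a germinal center or respond without one can become plasma cells, which make far more immunoglobulin RNA per cell than resting B cells. In exocrine glands, plasma cells of the IgA class supply the antibody that epithelial cells carry into tears and other secretions. A clonotype collects cells that descend from 1 rearranged B cell, although different B cells can also arrive at the same HCDR3, and somatic hypermutation adds mismatches to the germline IGHV gene. The libraries were made from total RNA of whole tissue, so a high share can come from many cells or from much RNA per cell, and these cannot be told apart. Markers of B cells or plasma cells could not be checked, since only heavy-chain transcripts were amplified.

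Total counts ranged from 40513 to 360216 per gland and from 86717 to 2302185 per spleen. Libraries that stood apart are named first, since several results rest on them. The gland of PBS-T mouse 5 held 17222 clonotypes against 565 to 2515 in the other 23 glands, and none of its 7 dominant clonotypes was found in its own spleen. All 7 were found in the glands of PBS-T mice 7 and 8 and of the 5 NC1 mice, where together they made up 0.0566% to 0.260% of the counts. In the glands of NC1 mice 2 and 3, all 19 dominant clonotypes of mouse 3 were also found in mouse 2, each with the identical leading nucleotide sequence, and they made up 4.92% of the counts of mouse 2. In the spleen of PBS-T mouse 6, 1 clonotype took up 78.5% of the counts. Whether the gland library of PBS-T mouse 5 came from the mouse it is labelled with could not be settled from the labels, so its own-spleen value and its place in the PBS-T group carry that doubt. A swap of libraries and carry-over between them were not tested. Tests were repeated without these libraries.

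Each gland held a small set of clonotypes that carried a large part of its counts. The number of dominant clonotypes per gland was 13 to 28 (median 19.5) in NOD-FMT mice and 7 to 26 (median 18) in PBS-T mice. The 5 NC1 glands held 19, 10, 19, 23 and 23. The ranges overlapped, and the lowest number belonged to PBS-T mouse 5. Together these clonotypes made up 42.4% to 72.3% of the counts of a NOD-FMT gland (median 55.4%) and 17.9% to 81.0% of a PBS-T gland (median 62.4%). In the NC1 glands their summed shares were 60.0%, 61.0%, 40.7%, 55.1% and 52.2%. The number and the summed share are the measures of the rule and were not tested.

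**Figure D1:**
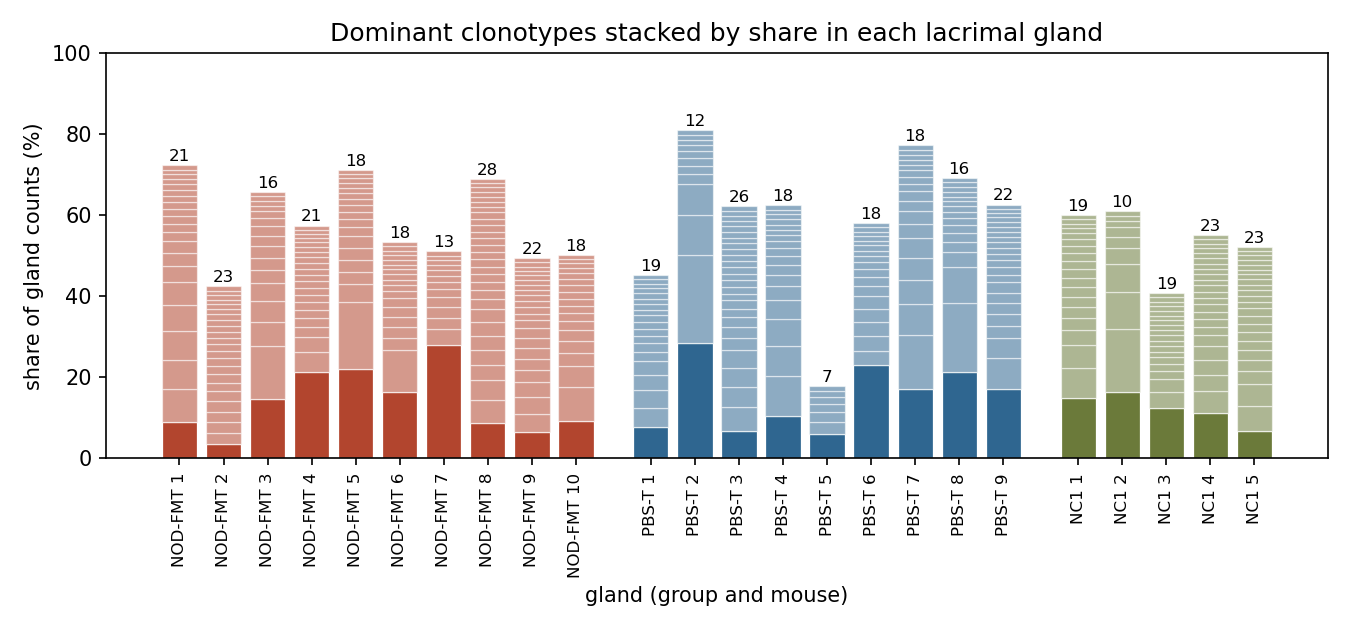
Share of gland counts (%) held by each dominant clonotype, stacked per gland for the 10 NOD-FMT, 9 PBS-T and 5 NC1 mice, with the leading clonotype in full color and the number of dominant clonotypes above each bar. The bar of PBS-T mouse 5 reaches 17.9%, and the other 23 bars reach from 40.7% to 81.0%.

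Within a gland the shares were uneven. Over the 448 members the median share was 1.76%, and 259 of them (57.8%) held less than 2%. A share of 5% or more was held by 60 members and a share of 10% or more by 22. The leading clonotype of a gland held 3.50% to 27.9% in NOD-FMT mice (median 11.9%) and 5.96% to 28.4% in PBS-T mice (median 17.1%). In the NC1 glands the leading shares were 15.0%, 16.4%, 12.4%, 11.2% and 6.84%. The members just above the limit were an IGHV1-64/IGHJ4 clonotype of NOD-FMT mouse 4 at 1.002% and an IGHV1-54/IGHJ2 clonotype of PBS-T mouse 1 at 1.008%. Just below it lay an IGHV2-9-1/IGHJ3 clonotype of NOD-FMT mouse 2 at 0.997% and an IGHV5-16/IGHJ3 clonotype of NC1 mouse 5 at 0.995%.

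The HCDR3 is where the V, D and J segments are joined, so glands that share its amino acid sequence were also compared by its nucleotides. Identical nucleotides can arise in separate rearrangements, and silent differences can come from hypermutation. Of the 441 distinct dominant clonotypes, 6 were dominant in 2 or more glands. Their HCDR3 nucleotides are shown as the leading sequence of each gland carries them, with capitals at the positions where the glands differ.
IGHV1-9/IGHJ2 ARGGNYFDY, PBS-T mouse 1: gcaagAgggggTaactactttgactac
IGHV1-9/IGHJ2 ARGGNYFDY, PBS-T mouse 2: gcaagAgggggAaactactttgactac
IGHV1-9/IGHJ2 ARGGNYFDY, NC1 mouse 1: gcaagGgggggAaactactttgactac
IGHV1-55/IGHJ2 ARGRDY, NOD-FMT mouse 7: gcaagAgggagAgactac
IGHV1-55/IGHJ2 ARGRDY, NOD-FMT mouse 9: gcaagGgggagGgactac
IGHV1-76/IGHJ2 ARRGDGYYFDY, NOD-FMT mouse 4: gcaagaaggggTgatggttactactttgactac
IGHV1-76/IGHJ2 ARRGDGYYFDY, PBS-T mouse 1: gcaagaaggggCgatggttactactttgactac
IGHV2-3/IGHJ3 AKGGYYGSSSWFAY, NOD-FMT mouse 7: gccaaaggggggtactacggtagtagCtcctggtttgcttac
IGHV2-3/IGHJ3 AKGGYYGSSSWFAY, NOD-FMT mouse 10: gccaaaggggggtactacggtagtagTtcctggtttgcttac
IGHV1-53/IGHJ1 ARNWDRYFDV, NC1 mice 1 and 4: gcaagaaactgggacaggtacttcgatgtc
IGHV1-53/IGHJ2 ARNWNWYFDY, NC1 mice 2 and 3: gcaagaaactggaattggtactttgactac

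The glands differed at 1 or 2 positions of the HCDR3 in 4 of the 6 clonotypes, without a change of the amino acids, and at none in the other two. For ARGGNYFDY, ARGRDY and ARRGDGYYFDY, no complete nucleotide sequence of 1 gland was found in the other gland where the clonotype was dominant. For AKGGYYGSSSWFAY, the leading sequence of NOD-FMT mouse 7, with 77409 counts there, had 2 counts in mouse 10, and the leading sequence of mouse 10, with 10179 counts, had 5 in mouse 7. ARNWDRYFDV had the same HCDR3 nucleotides in NC1 mice 1 and 4, but its leading complete sequences differed, and that of mouse 1 had 1 count in mouse 4. Only ARNWNWYFDY had the same leading sequence in both glands, with 8747 counts in NC1 mouse 3 and 899 in NC1 mouse 2, the gland pair that stood apart above.

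The levels of these 6 clonotypes were far apart between mice. ARGGNYFDY made up 21.9% of the gland of PBS-T mouse 2, 7.81% of PBS-T mouse 1 and 1.89% of NC1 mouse 1, and it was found in 6 glands and 15 spleens in all. AKGGYYGSSSWFAY made up 27.9% of the gland of NOD-FMT mouse 7 and 8.45% of NOD-FMT mouse 10, against at most 0.00325% in the 6 other glands that held it. Among the 24 spleens it was found in 4. ARRGDGYYFDY made up 4.46% of the gland of PBS-T mouse 1 and 2.63% of NOD-FMT mouse 4, and just missed the limit in NOD-FMT mouse 2 at 0.983%. This clonotype was the most widely found of the 6, in 12 glands and 20 spleens. ARNWDRYFDV held 11.2% and 3.12% of the glands of NC1 mice 4 and 1, and ARNWNWYFDY held 12.4% and 1.55% of those of NC1 mice 3 and 2. ARGRDY held 2.14% and 1.91% of the glands of NOD-FMT mice 7 and 9.

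The sequences that led the gland with the highest leading share of each group are shown with their added bases. Capitals here mark bases that the deposited germline alignment assigns to no V, D or J segment.
IGHV1-9/IGHJ2 YYGSSFDY, 28.4% of PBS-T mouse 2: tactacggtagtagctttgactac
IGHV2-3/IGHJ3 AKGGYYGSSSWFAY, 27.9% of NOD-FMT mouse 7: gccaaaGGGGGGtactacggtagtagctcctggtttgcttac
IGHV11-2/IGHJ2 MRWGGDGFDY, 16.4% of NC1 mouse 2: atgagatGGGGGGgggacGGctttgactac

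The HCDR3 of the PBS-T leader held 0 such bases, that of the NOD-FMT leader 6 and that of the NC1 leader 8. Bases trimmed from the segments are not marked, so that 0 does not mean an unaltered junction. The 95% Wilson intervals of the shares were 28.1% to 28.7%, 27.8% to 28.1% and 16.2% to 16.7%, which cover counting error only. The NOD-FMT and NC1 leaders were IgA, with 99.7% and 100% of their counts, whereas 95.1% of the counts of the PBS-T leader were IgG, mostly IgG2b. In the spleens of their own mice these clonotypes made up 0.492%, 0.0254% and 0.0484% of the counts for NOD-FMT mouse 7, NC1 mouse 2 and PBS-T mouse 2.

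The leading clonotype was a different one in each of the 24 glands. In NOD-FMT mice the leaders above 10% were an IGHV1-53/IGHJ4 clonotype at 14.6% in mouse 3, IGHV5-16/IGHJ4 AIYYYGSSYAMDY at 21.4% in mouse 4, an IGHV1-72/IGHJ3 clonotype at 22.02% in mouse 5, IGHV7-3/IGHJ2 ARYTPLGSYFDY at 16.4% in mouse 6 and IGHV2-3/IGHJ3 AKGGYYGSSSWFAY at 27.9% in mouse 7. The remaining NOD-FMT leaders were IGHV1-55/IGHJ3 ARDRAY at 8.87% in mouse 1, IGHV2-2/IGHJ1 ARKNWDWYFDV at 3.50% in mouse 2, IGHV1-9/IGHJ2 ARGGDYFDY at 8.71% in mouse 8, IGHV1-39/IGHJ4 AGNYVDYYAMDY at 6.47% in mouse 9 and IGHV10-1/IGHJ1 VRGSGLRRWYFDV at 9.14% in mouse 10. Thus 5 of 10 NOD-FMT leaders passed 10%, and the gland of mouse 2 had the lowest leading share of the 24 glands. In PBS-T mice the leaders above 10% were IGHV1-9/IGHJ2 YYGSSFDY at 28.4% in mouse 2, IGHV1-82/IGHJ2 ARRDYSNYGYYFDY at 10.6% in mouse 4, IGHV1-53/IGHJ2 AKRLYDY at 22.97% in mouse 6, IGHV1-22/IGHJ1 ARFYYGSSYWYFDV at 17.1% in mouse 7, IGHV10-3/IGHJ2 VGDSSGYTGDFDY at 21.3% in mouse 8 and IGHV1-72/IGHJ2 ARYHYSNPYYFDY at 17.1% in mouse 9. Those below it were IGHV1-9/IGHJ2 ARGGNYFDY at 7.81% in mouse 1, IGHV1-15/IGHJ3 TTYYYGSSYGLAY at 6.65% in mouse 3 and IGHV1-53/IGHJ2 AVDLLWLRRGSFDY at 5.96% in mouse 5. In NC1 mice the leaders were IGHV1-53/IGHJ1 ATNWDRYFDV at 14.97% in mouse 1, IGHV11-2/IGHJ2 MRWGGDGFDY at 16.4% in mouse 2, IGHV1-53/IGHJ2 ARNWNWYFDY at 12.4% in mouse 3, IGHV1-53/IGHJ1 ARNWDRYFDV at 11.2% in mouse 4 and IGHV1-9/IGHJ4 ARRLFYYPLDY at 6.84% in mouse 5. IGHV1-53 was the V gene of 3 of the 5 NC1 leaders, of 2 PBS-T leaders and of 1 NOD-FMT leader.

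Of the 448 members, 403 (90%) were mainly IgA, 30 mainly IgM and 15 mainly IgG. Of the NOD-FMT members, 196 of 198 were mainly IgA, as were 92 of 94 NC1 members and 115 of 156 PBS-T members. The IgA percent of the dominant clonotypes' counts was 93.8% to 99.8% in the 10 NOD-FMT glands (median 98.9%). In the PBS-T glands of mice 1 to 9 it was 94.3%, 38.7%, 77.1%, 99.5%, 81.5%, 97.9%, 98.8%, 71.1% and 7.40%. Thus 5 PBS-T glands lay below every NOD-FMT gland and 4 lay within their range. The NC1 glands had 99.4%, 86.3%, 99.7%, 99.7% and 99.4%.

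The mean was 98.3% ± 1.90 (SD, n = 10) in NOD-FMT and 74.0% ± 31.6 (SD, n = 9) in PBS-T mice. The difference of 24.2 percentage points passed the threshold (two-sided exact permutation test, p = 0.0031, adjusted p = 0.00929 over the 12 tests). This test treats the mice as exchangeable, so the unequal spread of the groups also enters its p-value. Without PBS-T mouse 9, the gland with the lowest IgA percent, the difference was 15.9 points. Leaving out PBS-T mouse 5 gave 25.2 (exact permutation, adjusted p = 0.0196 for each). Among glands whose deposited file was marked merged (6 NOD-FMT, 4 PBS-T), it was 13.6 (exact permutation, adjusted p = 0.0229). Among the others (4 NOD-FMT, 5 PBS-T), where PBS-T values ran from 7.40% to 99.5%, it was 32.4 (exact permutation, adjusted p = 0.508). The other clonotypes of the glands differed the same way, with 94.6% ± 1.64 (SD, n = 10) IgA in NOD-FMT and 76.3% ± 23.3 (SD, n = 9) in PBS-T mice. Over all 24 glands the IgA percent of the dominant clonotypes was 1.22 points above that of the others, and higher in 18 glands (two-sided sign-flip permutation test, p = 0.368, adjusted p = 0.552). Leaving out PBS-T mouse 9 gave 2.05 points and leaving out PBS-T mouse 2 gave 1.89 points (sign-flip permutation, adjusted p = 0.134 and 0.247). Among glands marked merged this difference was larger and passed the threshold, and among the others it turned negative. The gap between dominant and other clonotypes was 3.61 points in NOD-FMT and -2.28 points in PBS-T mice, a difference that did not pass the threshold (exact permutation, p = 0.0514, adjusted p = 0.15 over 6 such tests).

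**Figure D2:**
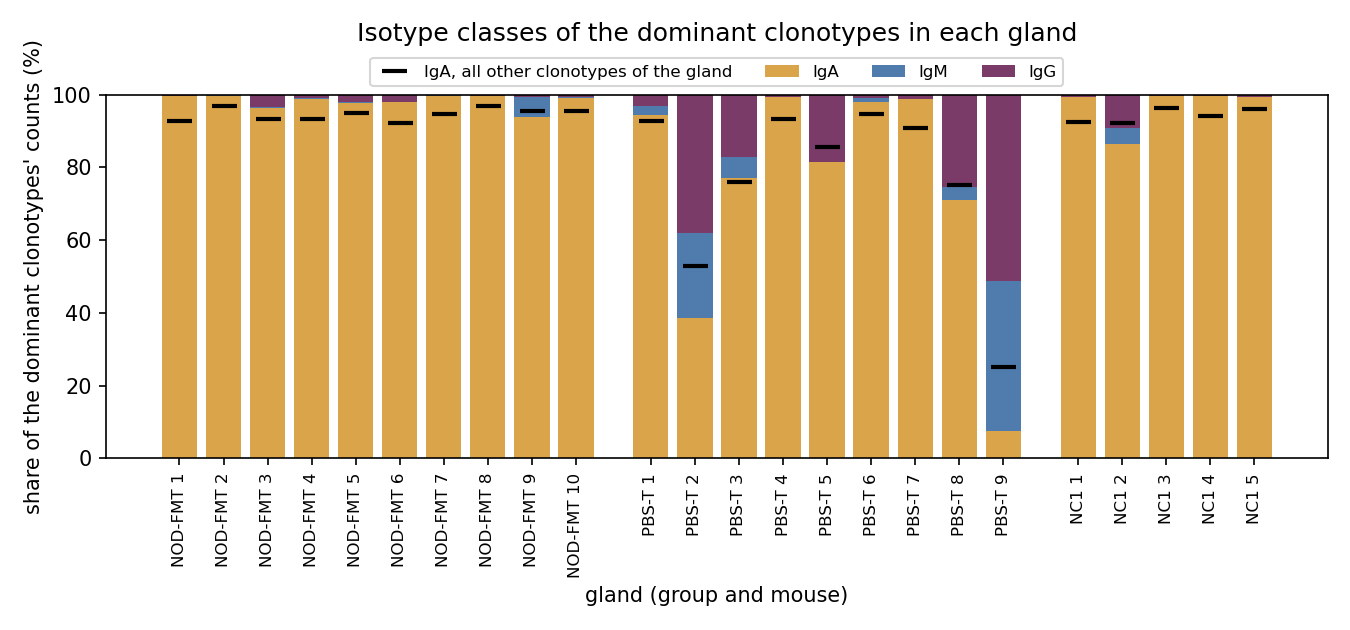
Percent of the dominant clonotypes' counts that were IgA, IgM and IgG in each gland (stacked bars, 1 per mouse), with a black line for the IgA percent of all other clonotypes of the same gland. PBS-T mouse 9 stands at 7.40% IgA and PBS-T mouse 2 at 38.7%, while the 10 NOD-FMT glands lie between 93.8% and 99.8%.

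The members that were not mainly IgA were concentrated in a few PBS-T glands. Of 45 such members, 38 were from PBS-T mice 2, 3, 8 and 9, and 30 of these from mice 2 and 9. In PBS-T mouse 9, 15 of 22 members were mainly IgM and 5 mainly IgG, led by the IGHV1-72/IGHJ2 clonotype ARYHYSNPYYFDY at 17.1% of the gland, of which 86.8% was IgG. IgG2c, the class with which B6 mice answer much viral and T helper 1 driven stimulation, was the main isotype of 4 members there. In PBS-T mouse 2, 8 of 12 members were mainly IgM. The second clonotype of PBS-T mouse 8, IGHV14-3/IGHJ4 ASNYDYDGYYAMDY, held 17.1% of the gland and was 99.97% IgG, mainly IgG2c. The gland of PBS-T mouse 3 was led by the IGHV1-15/IGHJ3 clonotype TTYYYGSSYGLAY at 6.65%, which was IgG throughout and mainly IgG1. The 2 NOD-FMT members outside IgA were an IgG2b clonotype of mouse 3 and an IgM clonotype of mouse 9, IGHV1-69/IGHJ3 ARELVFAY.

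Most members were of nearly 1 class. In 404 of 448 (90.2%), 1 of IgA, IgM and IgG made up 95% or more of the counts. IgG and IgA both reached 5% in 34 members, IgM and IgA in 5, and IgM and IgG in 5. One of the IgM and IgA members was the IGHV2-9-1/IGHJ2 clonotype ASQLTGTTQYYFDY of PBS-T mouse 6, with 66.3% IgA and 33.1% IgM in the gland.

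Dominant clonotypes carried few V mutations, counted as the mismatches, insertions and deletions against the germline IGHV gene. The leading sequence of 321 members (71.7%) had none, and 305 members (68.1%) had a mean below 0.5. The mean per gland was 0.123 to 1.81 in NOD-FMT mice (median 0.581) and 0.258 to 2.76 in PBS-T mice (median 0.908), and the ranges overlapped over most of their length. The NC1 glands had 1.34, 1.11, 1.61, 3.17 and 1.31. NOD-FMT and PBS-T means were 0.689 ± 0.515 (SD, n = 10) and 1.07 ± 0.753 (SD, n = 9), a difference of -0.38 that did not pass the test (two-sided exact permutation, p = 0.217, adjusted p = 0.372). Without PBS-T mouse 5, which had 2.76, it was -0.17 (exact permutation, adjusted p = 0.556). Among the glands marked merged it was slightly positive. Unmutated leading sequences were found in 161 of 198 NOD-FMT, 111 of 156 PBS-T and 49 of 94 NC1 members. These counts pool the glands of a group, and members of the same gland are not replicates.

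Against the other clonotypes of the same gland, the dominant ones were less mutated. The means over glands were 1.05 ± 0.757 (SD, n = 24) and 2.11 ± 0.585 (SD, n = 24) mutations. The dominant mean was lower in 23 of 24 glands, with NC1 mouse 4 as the exception. Each other clonotype counts once in this mean, and 33245 of the 41056 other clonotypes were under 0.01% of their gland. The difference of -1.06 mutations had p = 1e-05 (two-sided sign-flip permutation test, adjusted p = 4e-05), the smallest value that 100000 resamples can give. Restricted to other clonotypes of 10 or more counts, the difference was -0.44 (sign-flip permutation, adjusted p = 0.00492). A minority of members was far from the germline. A mean of 3 or more mutations was found in 57 of 448, among them 26 of the 94 NC1 members, again pooled over glands. The highest means were 14.0 for the IGHV14-2/IGHJ2 clonotype ARSGEGFDY of NOD-FMT mouse 7 and 13.4 for the IGHV1-53/IGHJ3 clonotype ASGLSRFAY of NOD-FMT mouse 6.

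Clonotypes were further divided by their share of the gland. Over 24 glands the mean number of V mutations was 2.35 ± 0.575 (SD) for clonotypes under 0.01% of the gland, 1.55 ± 0.674 (SD) from 0.01% to 0.1%, 1.30 ± 0.795 (SD) from 0.1% to 1% and 1.05 ± 0.757 (SD) for the dominant ones. Among the NC1 glands, only that of mouse 3 fell at each step below 1%, and by little. From the lowest class upward, NC1 mouse 1 had 2.12, 2.31 and 2.55, and mouse 2 had 2.34, 2.50 and 2.44. NC1 mouse 3 had 2.72, 2.68 and 2.54, mouse 4 had 2.61, 2.57 and 2.91, and mouse 5 had 2.65, 2.67 and 2.40. The dominant class rests on 7 to 28 clonotypes per gland, the lowest class on 301 to 16098. The dominant mean was above that of the 0.1% to 1% class in NOD-FMT mice 4, 6, 7 and 10. The same held in PBS-T mice 2 and 5 and NC1 mouse 4, and in the other glands it was below. The mean percent found in the own spleen was 16.8%, 60.3%, 76.3% and 90.5% in the same order. Without PBS-T mouse 5 and NC1 mice 2 and 3 these percents were 18.2%, 64.2%, 80.1% and 95.7%.

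**Figure D3:**
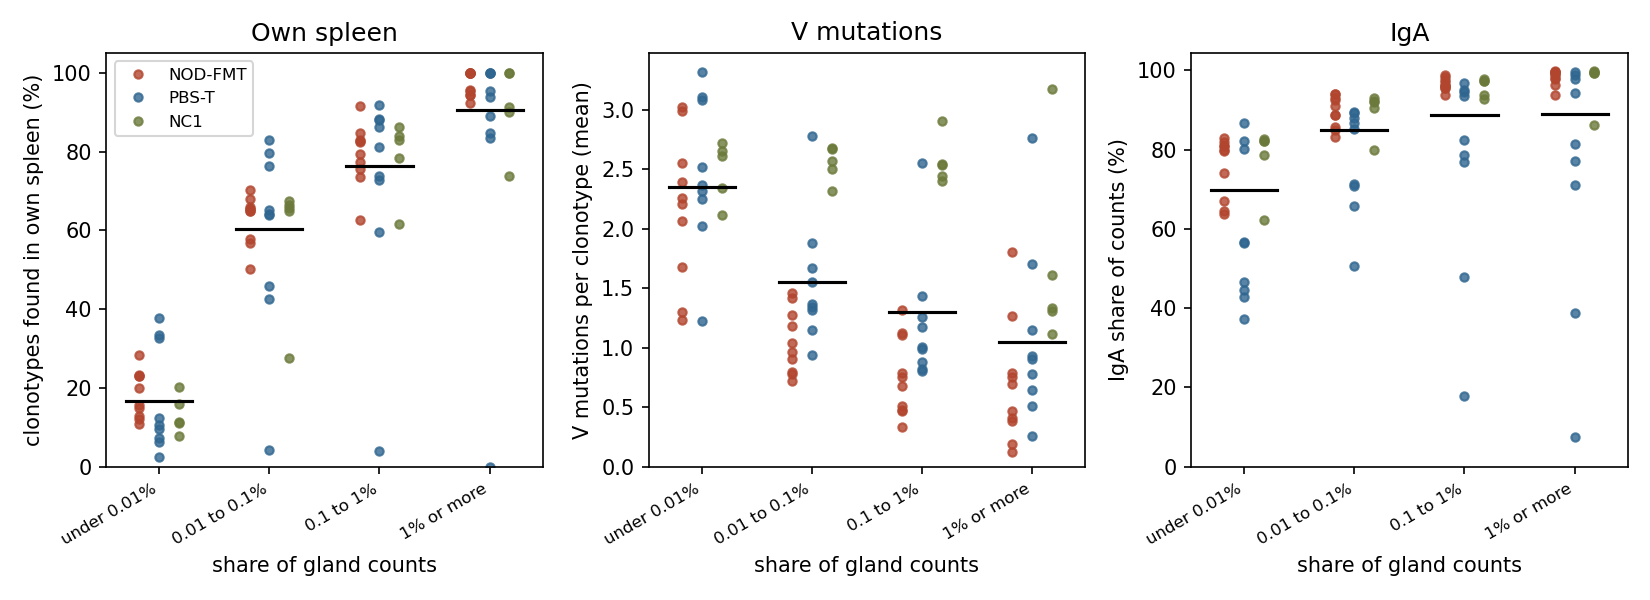
Percent of clonotypes found in the own spleen, mean V mutations per clonotype and IgA percent of counts, for clonotypes in 4 classes of their share of the gland, with 1 point per gland colored by group and a black line at the mean of the 24 glands. The means of the own-spleen percent go from 16.8% in the lowest class to 90.5% for the dominant clonotypes, where PBS-T mouse 5 stands at 0%, and the means of the mutations go from 2.35 to 1.05.

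A dominant clonotype was made up of a leading sequence and many minor ones. The median member had 50.5 distinct nucleotide sequences, and the median share of the leading sequence was 84.3% of a member's counts. What part of the minor sequences comes from errors of amplification or sequencing was not tested. Since deeper clonotypes show more variants, the number was set to 400 counts, a level that every member exceeds. The expected number of distinct sequences was then 13.4 to 19.2 per member on average in NOD-FMT glands (median 15.9) and 13.8 to 76.9 in PBS-T glands (median 15.6). The NC1 glands had 17.4, 19.3, 14.4, 14.8 and 15.8. NOD-FMT minus PBS-T, the difference was -6.60 (two-sided exact permutation test, p = 0.426, adjusted p = 0.568) and became 0.21 without PBS-T mouse 5, which held the value of 76.9 (exact permutation, adjusted p = 0.802).

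Some members of a gland were close relatives by sequence. In 10 glands, 32 members fell into 15 groups that shared the V and J genes and the HCDR3 length and were linked by 1 changed residue. An example was the leading clonotype of PBS-T mouse 6, IGHV1-53/IGHJ2 AKRLYDY at 22.97%, with AKRLFDY at 3.35% and AKRLFEY at 3.60%. In NOD-FMT mouse 6 the members TGDGFAY and TGDNFAY of IGHV6-3/IGHJ3 held 2.66% and 2.33%. In NC1 mouse 1, ATNWDRYFDV and ARNWDRYFDV were each dominant under both IGHV1-53 and IGHV1-52. Whether such a pair is a single clonotype split between V gene calls was not tested.

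The HCDR3 of the members was 5 to 19 residues long, with a median of 12. The mean per gland was 11.3 ± 1.01 (SD, n = 10) residues in NOD-FMT and 11.5 ± 1.09 (SD, n = 9) in PBS-T mice. The difference of -0.24 residues was within the spread of both groups (two-sided exact permutation test, p = 0.619, adjusted p = 0.675), and leaving out 1 mouse moved it between -0.51 (PBS-T mouse 2 left out) and 0.011 (PBS-T mouse 8 left out). Among glands not marked merged it turned positive, by more than with any mouse left out. The NC1 means were 11.2, 10.8, 12.2, 11.4 and 11.5. Against the other clonotypes of the same gland the difference was -0.23 residues, shorter in 16 of 24 glands (two-sided sign-flip permutation test, p = 0.135, adjusted p = 0.27). With a limit of 0.5% in place of 1% this difference passed the threshold.

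The members used 70 IGHV genes and 4 IGHJ genes. The V gene used most was IGHV1-53 (chr12:115158403-115158835, minus strand, GRCm38), in 39 members of 18 glands, followed by IGHV1-26 (chr12:114788372-114788805, minus strand) in 30 members of 19 glands. Both are functional V genes of the large IGHV1 family in the immunoglobulin heavy-chain locus. IGHV1-53 made up 8.71% of members and 5.13% ± 1.56 (SD, n = 24) of the other clonotypes of a gland, and IGHV1-26 made up 6.70% and 6.34% ± 2.10 (SD, n = 24). For all V and J genes, the percent of members is pooled over glands, whereas that of other clonotypes is a mean over glands. Related members of a gland, and a clonotype dominant in several glands, are each counted separately. Of the IGHV1-53 members, 14 were from NOD-FMT, 10 from PBS-T and 15 from NC1 glands, and all 5 NC1 glands had at least 1. Next came IGHV1-22 with 24 members, IGHV1-72 with 21, IGHV1-9 with 19, IGHV6-3 and IGHV7-3 with 18 each and IGHV1-64 with 17. IGHV1-22 had 3 members in NOD-FMT, 13 in PBS-T and 8 in NC1 mice, from 3 glands of each group and 9 in all. The 17 members of IGHV1-64 came from 14 glands. IGHV6-3 counted 12 members in 5 NOD-FMT glands, 2 in 2 PBS-T glands and 4 in 3 NC1 glands. It made up 4.02% of members and 1.82% ± 0.904 (SD, n = 24) of the other clonotypes, IGHV1-22 made up 5.36% and 2.84% ± 2.45 (SD, n = 24), and no test was made of single genes.

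Among the V genes with the most members, IGHV1-9 (chr12:114583569-114584002, minus strand) had the highest median of the mean V mutations. It was 2.03 over its 19 members, of which ARGGNYFDY, dominant in 3 glands, makes up 3. The medians of the other 7 of these V genes lay between 0.0246 and 0.190. Among V genes with fewer members, some had higher medians than IGHV1-9 and most had lower ones. Mutation was not tested between V genes. IGHJ2 was the J gene of 180 members (40.2%) and of 34.1% ± 3.57 (SD, n = 24) of the other clonotypes. IGHJ4 was used by 98 members (21.9%, others 24.2%), IGHJ1 by 91 (20.3%, others 18.1%) and IGHJ3 by 79 (17.6%, others 23.6% ± 3.14, SD, n = 24). IGHJ3 counted 47 of 198 NOD-FMT members in 10 glands and 14 of 156 PBS-T members in 7 glands. IGHJ2 counted 71 and 74, in 10 and 9 glands. These counts are a description without a test, and the share among other clonotypes was not split by group.

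Nearly all dominant clonotypes of a gland also occurred in the spleen of their mouse. Of 448 members, 417 (93.1%) had at least 1 count in the own spleen, and 441 members remain without PBS-T mouse 5, of which 94.6% had one. The own-spleen percent was 92.3% to 100% in NOD-FMT mice (median 97.8%). In PBS-T mice it was 0% in mouse 5 and 83.3% to 100% in the other 8. The NC1 values were 100%, 90%, 73.7%, 91.3% and 100%. In the spleens of the other 23 mice, by contrast, 6.39% ± 6.23 (SD, n = 24) of the members were found on average, against 90.5% ± 20.4 (SD, n = 24) in the own spleen. The difference of 84.2 percentage points had p = 1e-05, the smallest that the resamples can give (two-sided sign-flip permutation test, adjusted p = 4e-05), and the own spleen was higher in 23 of 24 mice. Thinned to the lowest spleen total, the difference was 80.3 points. Carry-over between the gland and the spleen library of the same mouse was not tested, and this comparison cannot tell it apart.

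The other clonotypes of a gland were found in the own spleen less often, in 31.6% ± 12.8 (SD, n = 24) of cases. The difference of 59.0 percentage points was positive in 23 of 24 mice (two-sided sign-flip permutation test, p = 1e-05, adjusted p = 4e-05). Compared only with other clonotypes of 10 or more counts it was 24.6 points (sign-flip permutation, adjusted p = 6e-05). Between NOD-FMT and PBS-T mice the own-spleen percent of the members differed by 14.3 points, from 97.2% ± 3.07 (SD, n = 10) to 82.9% ± 31.7 (SD, n = 9), which did not pass the threshold (two-sided exact permutation test, p = 0.0432, adjusted p = 0.104). Without PBS-T mouse 5 it was 3.95 points (exact permutation, adjusted p = 0.24), and without PBS-T mouse 1, 2 or 4 it was 16.5 points (exact permutation, adjusted p = 0.0393 for each).

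**Figure D4:**
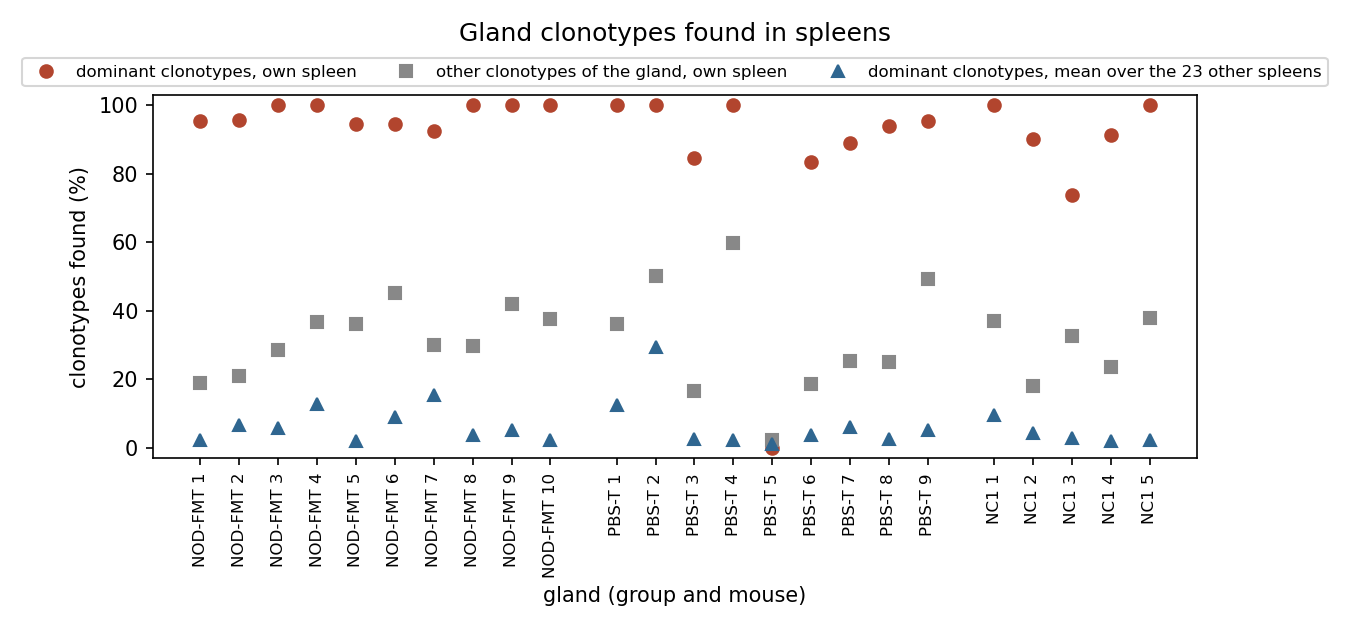
Percent of the dominant clonotypes of each gland found in its own spleen (circles) and, on average, in the 23 other spleens (triangles), and percent of all other clonotypes of the gland found in its own spleen (squares), 1 set of symbols per mouse. The circles lie between 73.7% and 100% except in PBS-T mouse 5, where the value is 0%, and the triangles lie between 1.24% and 29.3%.

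In the spleen the same clonotypes were mostly rare. The median member made up 0.013% of the counts of the own spleen, and the members of a gland together made up a median of 1.19% (lowest 0%, highest 79.2%). A member with no count in the own spleen had a share there of at most 0.000506% to 0.00346%, depending on the depth of the spleen, where a limit of 3 counts is taken. Of 24 such members outside PBS-T mouse 5, 9 were found in another spleen, and the highest share in the gland was 3.72%, of an IGHV1-22/IGHJ4 clonotype of PBS-T mouse 8. Of the members, 396 (88.4%) had their leading nucleotide sequence in the own spleen too. Over the 23 mice with any member in the spleen, sequences identical to one in the gland carried 37.3% to 97.4% of the members' spleen counts.

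The exceptions were large. In PBS-T mouse 6, the IGHV2-9-1/IGHJ2 clonotype ASQLTGTTQYYFDY held 2.19% of the gland and 78.5% of the spleen, with 168843 counts, of which 98.6% were IgM. In NOD-FMT mouse 3, the IGHV1-59/IGHJ4 clonotype AREMDY held 1.66% of the gland, where 99.8% of it was IgA, and 4.82% of the spleen, where 16.7% was IgA. In all 11 members, 3 of NOD-FMT, 7 of PBS-T and 1 of NC1 mice, reached 1% of the own spleen, and 7 of these 11 were mainly IgM in the gland. Of these, 5 came from PBS-T mouse 2, whose members summed to 10.2% of its spleen. In PBS-T mouse 9 the members summed to 5.68% of the spleen.

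The class of a member in the gland and in the spleen was compared for members with 10 or more spleen counts. Of 319 members that were mainly IgA in the gland, 264 (82.8%) were also mainly IgA in the spleen. Of 39 members that were mainly IgM or IgG in the gland, 1 was mainly IgA in the spleen. Per mouse, the IgA percent of the members' spleen counts ranged from 17.9% to 92.6% in NOD-FMT, from 1.04% to 86.7% in 8 PBS-T and from 41.6% to 90.1% in NC1 mice.

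Most dominant clonotypes were found in no gland of another mouse, which also holds for gland clonotypes as a whole. The 41504 clonotypes summed over all glands were 37645 distinct ones, so most occurred in 1 gland only. A place in 1 gland is therefore not particular to the members. Of 448 members, 300 were in no other gland, 148 (33.0%) in at least 1, and 17 in 5 or more, of which 7 were those of PBS-T mouse 5. The mean percent of the other 23 glands that held a member was 1.45% to 5.69% in NOD-FMT mice (median 3.00%). In PBS-T mice it was 43.5% for mouse 5 and 0.198% to 4.35% for the rest, and in NC1 mice 1.83%, 1.74%, 4.58%, 0.189% and 0.756%. NOD-FMT and PBS-T means were 3.21% ± 1.25 (SD, n = 10) and 6.44% ± 14.0 (SD, n = 9), a difference of -3.23 points (two-sided exact permutation test, p = 0.928, adjusted p = 0.928). Without PBS-T mouse 5 the sign turned, to 1.45 points (exact permutation, p = 0.0566, adjusted p = 0.136). Against the other clonotypes of the gland, which were found in 2.34% ± 1.97 (SD, n = 24) of other glands, the members differed by 1.79 points (two-sided sign-flip permutation test, p = 0.495, adjusted p = 0.595). Without PBS-T mouse 5 this was 0.44 points (sign-flip permutation, adjusted p = 0.516). Against other clonotypes of 10 or more counts the difference was 2.67 points (sign-flip permutation, adjusted p = 0.0158).

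Most pairs of glands shared no dominant clonotype. Leaving out PBS-T mouse 5 and NC1 mouse 3 as the first gland, 363 of 506 ordered pairs had no dominant clonotype of the first gland in the second, and 3 pairs reached 40%. The remaining pairs lay at or below 26.1%. The 3 pairs were NOD-FMT mouse 9, with 10 of 22 members in the gland of PBS-T mouse 1, NOD-FMT mouse 10, with 8 of 18 in the same gland, and PBS-T mouse 8, with 7 of 16 in the gland of PBS-T mouse 3. The members found made up 0.0734%, 0.0189% and 0.0296% of the counts of the second gland. Identical leading sequences accounted for 8, 5 and 4 of them. The part of carry-over between libraries in these pairs was not tested.

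**Figure D5:**
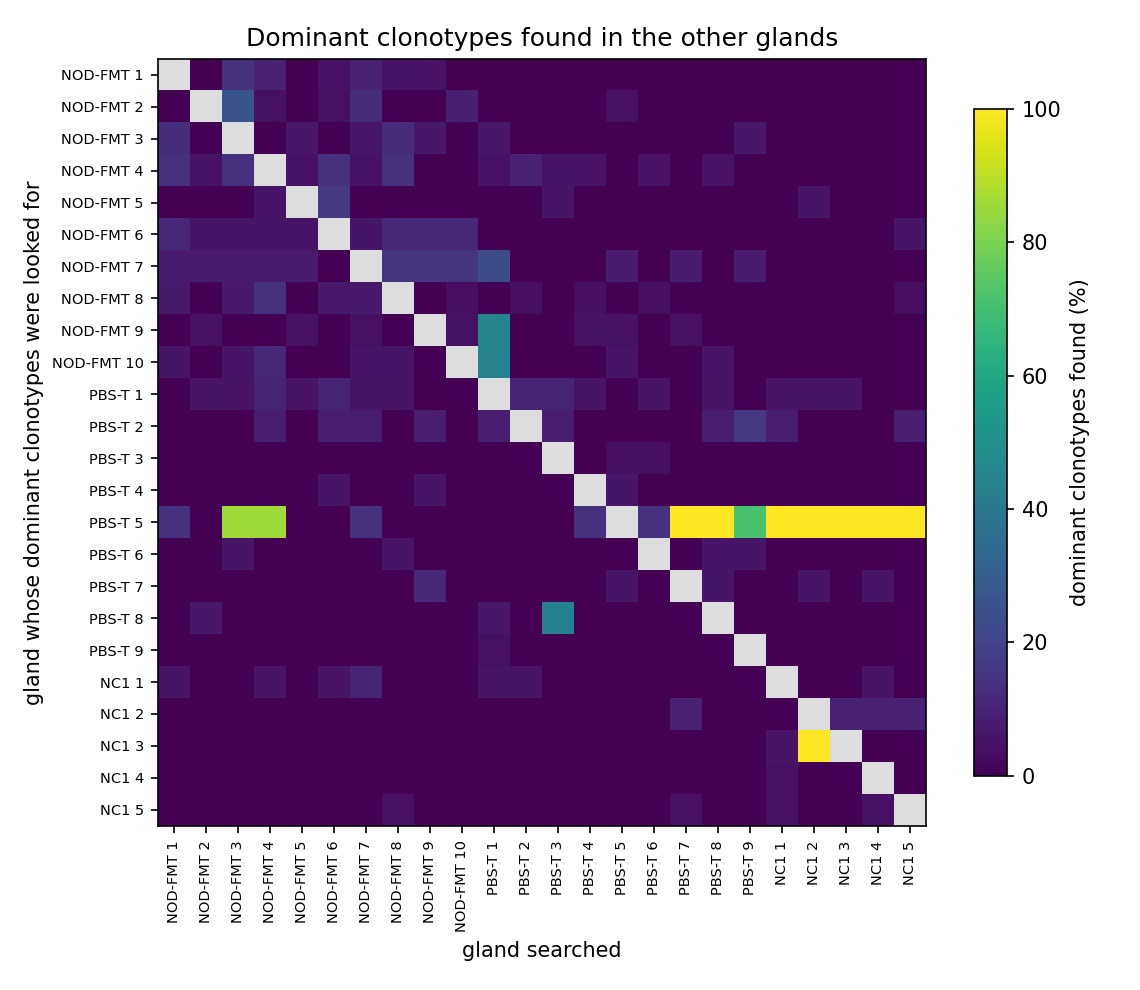
Percent of the dominant clonotypes of one gland (rows) found with at least 1 count in each other gland (columns), for the 24 glands, with the gland itself in gray. The row of PBS-T mouse 5 reaches 100% in 7 glands, and the row of NC1 mouse 3 reaches 100% in NC1 mouse 2.

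The 7 members of PBS-T mouse 5 were led by the IGHV1-53/IGHJ2 clonotype AVDLLWLRRGSFDY, with 21458 counts (5.96%) and 1925 distinct sequences, found in 10 other glands and in no spleen. The IGHV2-2/IGHJ4 clonotype ARWWLLGAMDY at 3.05% was 98.7% IgG, mainly IgG2b, and the other 6 were mainly IgA. Of the 7 members, 2 had an unmutated leading sequence, and the gland's mean of 2.76 V mutations was the highest of the PBS-T group and below the 3.17 of NC1 mouse 4, where 7 of 23 members had an unmutated leading sequence. In the spleens of the other mice, 1 of the 7 members was found, in 2 spleens.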

How the data were processed

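From 24 mice, 1 BCR heavy-chain library of each LG and 1 of each spleen (48 files) were used. As the study's methods state, the authors merged paired reads with PEAR, filtered them for quality, built consensus sequences of UMI clusters (Clustal Omega, singletons dropped), assigned isotypes from IMGT references and called germline genes with IgBLAST. The deposited counts are consensus sequences per nucleotide sequence and isotype, without normalization, for productive sequences only. The deposited V mutation numbers, of no standard unit, count mismatches, insertions and deletions against the germline IGHV gene. The germline release is not given in the sources used here. The submitters' processing notes name the build mm10. The authors' filter against sequences shared by more than 2 mice had not been applied to these files. Removing every sequence that 3 or more mice shared within a tissue, run as an alternative, took out far more counts than the study gives for its filter, so it is not the same filter, and what differs is not known here. The file names of 11 of the 24 glands bear the mark merged, whose meaning is not given, and in such files a sequence can stand on several lines, so distinct sequences were counted.

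Counts were summed over sequences with the same V gene, J gene and HCDR3 residues, and clonotypes at 1% or more of a gland's total were the members. Total counts per gland (40513 to 360216) and per spleen (86717 to 2302185) set the precision, and Wilson intervals at 95% and limits of 3 counts cover counting error only. The gavaged groups were set against each other by all 92378 assignments of their mice, two-sided on the difference of means. Members and other clonotypes of a gland were compared by 100000 sign flips over mice, or by all flips where these were fewer. Benjamini-Hochberg adjustment covered the 12 tests at a threshold of 0.05. The scripts were tested on simulated data. The members, lists and tests were chosen with earlier results of these data known.

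The clonotypes named are the leader of each gland, those dominant in 2 or more glands and the 4 nearest the limit. The V genes named are those of these clonotypes and the 8 with the most members. Clonotypes named for isotype, mutation, spleen share or relatedness, and those of PBS-T mouse 5, were chosen after their values were seen. HCDR3 sequences longer than 14 residues are named by their genes only. Gene positions came from GENCODE M21 (GRCm38) by symbol, which matched 68 of 70 IGHV and 4 of 4 IGHJ genes. Alternatives were 2 filters on shared sequences, limits of 0.5% and 2%, clonotypes by HCDR3 nucleotides, merged and other glands apart, each mouse left out, medians, a replicate block, thinning, presence from 2 counts and other clonotypes of 10 or more counts. Added after seeing the data were leaving out PBS-T mouse 5 and NC1 mice 2 and 3 together, and presence in another gland from 0.1% of its counts. Python 3.11.15, NumPy 2.4.6, pandas 2.3.3, SciPy 1.17.1 and Matplotlib 3.10.9 were used. Peripheral blood libraries were not analysed here.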

Additional observations from a re-analysis of the deposited data

Results flagged for a closer look

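Of 27 sets of values, 5 held a mouse far from the rest of its group by the gap test of Dixon, which flags about 1 in 20 groups by chance. The expected number of sequences per 400 counts was 76.9 in PBS-T mouse 5 and 13.8 to 19.5 in the other 8 PBS-T mice. In that mouse the own-spleen percent was 0%, against 83.3% to 100%, and the percent of other glands that held a member was 43.5%, against 0.198% to 4.35%. The IgA percent of the dominant clonotypes was 86.3% in NC1 mouse 2 and 99.4% to 99.7% in the other 4 NC1 mice. The mean of V mutations was 3.17 in NC1 mouse 4, against 1.11 to 1.61. What sets these glands apart was not tested.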

How the results depend on the processing

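Of 411 values recomputed under the alternatives, 282 with a mouse left out and 111 others kept their direction and their side of the threshold. The 4 calls were IgA between the groups, V mutations and own-spleen percent against other clonotypes, and own against other spleens. They held under each alternative run, with an exception for IgA. Among the glands not marked merged (4 NOD-FMT, 5 PBS-T) the IgA difference was 32.4 points (exact permutation, adjusted p = 0.508). Among the glands marked merged, the differences between NOD-FMT and PBS-T mice in V mutations, sequences per 400 counts and other-gland percent turned to 0.031, 1.53 and 1.44, and IgA against other clonotypes went from 1.22 to 3.27 points and passed the threshold. Among the others, the HCDR3 length difference turned to 0.78 residues and IgA against other clonotypes to -0.51 points. With a limit of 0.5%, the members' HCDR3 was 0.32 residues shorter than that of the others and passed, a difference of -0.32. Against other clonotypes of 10 or more counts, the other-gland difference was 2.67 points and passed. Without PBS-T mouse 5 and NC1 mice 2 and 3, chosen after seeing the data, sequences per 400 counts and other-gland percent turned to 0.21 and 1.67, and with presence from 0.1% of a gland the latter was 0.27. Leaving out each mouse gave -0.51 to 0.011 residues for the HCDR3 length between the groups (positive without PBS-T mouse 8), -7.68 to 0.21 for sequences per 400 counts and -4.10 to 1.45 for other-gland percent (both positive without PBS-T mouse 5), and 3.95 to 16.5 for own-spleen percent (past the threshold without PBS-T mouse 1, 2 or 4). The IgA difference ranged from 15.9 (without PBS-T mouse 9) to 27.4 points and the V mutation difference from -0.51 to -0.17 (without PBS-T mouse 5). Against other clonotypes, IgA ranged from 0.93 to 2.05 points (highest without PBS-T mouse 9) and other-gland percent from 0.44 (without PBS-T mouse 5) to 2.14 points. The cause was not tested.

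With the replicate number as a block over 9 pairs, the differences were 24.2 points for IgA, -0.39 mutations, -0.33 residues, -6.62 sequences, 14.0 points for the own spleen and -3.30 for other glands, and the block changed no call. The labels do not say whether equal numbers mark paired mice. Deviations in V gene use correlated by -0.25 to 0.21 within numbers, and 0 of 9 NOD-FMT mice correlated best with the PBS-T mouse of their own number. These values cannot exclude a pairing that leaves V gene use unchanged. The depth of the spleen limits absence, since a count of 0 allows up to 0.00346% in the shallowest one.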

Other observations

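Under the limit of 2% in place of 1%, 84 clonotypes were dominant in NOD-FMT, 69 in PBS-T and 36 in NC1 glands, with median summed shares of 40.7%, 46.8% and 33.2%. Under a limit of 0.5% the numbers were 393, 300 and 184. With sequences found in 2 or more mice removed and the members chosen again, the gland of PBS-T mouse 5 had 2 dominant clonotypes, which held 3.76% of its remaining 179623 counts, and the gland of NC1 mouse 3 had 6, at 14.3% of the 4388 that remained of its 77100 counts. With sequences found in 3 or more mice removed, PBS-T mouse 5 had 3 dominant clonotypes at 4.57% of 216868 counts, and NC1 mouse 3 had 19 at 41.2% of 76279 counts. Members were chosen anew under each filter, at 1% of the remaining counts, and were not matched to those of the report.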
